A study of Homo sapiens with 6 samples.

Results

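The genes described here are 46 glycolysis and hypoxia response genes, chosen by listed symbol from the 26484 gene symbols of the count tables. They comprise 17 glycolytic enzymes, 4 sugar and lactate transporters, 6 enzymes that steer sugar flux, 5 HIF subunits and oxygen sensors, and 14 hypoxia genes whose products are not enzymes or carriers of sugar metabolism. All 46 symbols were found and 45 passed the filter on low counts, which left 11517 genes of the whole table. The libraries came from MCF10CA1a, an established malignant line of the MCF10A human breast epithelial lineage, with no genetic change or drug named in the labels. Cells were grown in serum-containing medium on soft (500 Pa) or stiff (8000 Pa) hydrogel dishes, and both stiffnesses carried the same growth factor-reduced Matrigel coat at 0.14 mg/ml. Medium was changed on day 4 and RNA, which the labels call cytosolic, was taken on day 5, with 3 biological replicates at each stiffness. The design holds 1 line, and no oxygen level is given in the labels.

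Glycolysis splits glucose to pyruvate in the cytosol, and lactate dehydrogenase turns pyruvate into lactate, which leaves the cell through monocarboxylate carriers. When oxygen is low, prolyl hydroxylases no longer mark the HIF alpha subunits for breakdown. The alpha subunit then pairs with ARNT, binds short hypoxia response elements and raises transcription of many of these enzymes, of the glucose carriers and of genes for vessel growth, acid balance, mitophagy and collagen folding. HIF alpha protein is controlled mainly by its stability, which a transcript count does not measure. Breast cancer cells often run glycolysis at a high rate also in oxygen.

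Total counts ran from 8305601 to 18779742 per library, and levels are given as CPM, the count as a rate per library total after TMM scaling. The 8000 Pa replicate 1 library stood apart: it lay at -62.3 on the first principal component, which held 49.1% of the variance, against 47.8 and 35.4 for the replicate 3 libraries of 500 Pa and 8000 Pa. Gene loadings on that component followed transcript GC content (Spearman rho 0.79 across 11008 genes, which share the same libraries). All 12 epithelial and mammary markers checked, among them EPCAM, CDH1, KRT8, KRT18 and KRT5, were above the filter. Summed, they ran from 24588 to 40429 CPM at 500 Pa and from 17445 to 32040 CPM at 8000 Pa. Their median log2 fold change without pairing was -0.32, with 4 above 0 and 8 below 0, and 0 passed with or without pairing. Some markers of other cell types passed in a fit that pairs libraries by replicate number. There PECAM1 and CDH5 of the 7 endothelial markers, and FABP4 and LPL of the 6 adipocyte markers, rose on the stiff gel. The summed endothelial list, mostly PECAM1, ran from 100.2 to 156 CPM at 500 Pa and from 213 to 258 CPM at 8000 Pa, with CLDN5 and TEK at 0 and VWF at 7 counts in all. ESAM, also tested, had an unpaired log2 fold change of 0.05 (SE 0.42). The summed adipocyte list ran from 3.91 to 5.25 CPM at 500 Pa and from 12.9 to 19.6 CPM at 8000 Pa, with ADIPOQ and LEP at 0. CIDEC, with 35 counts in all, went from a mean of 0.795 to 0.363 CPM, and PLIN1, with 21, from 0.335 to 0.415 CPM. Of the leukocyte and fibroblast genes PTPRC, CD3E, COL1A2 and COL3A1 were at 0, as were all 4 erythroid markers, and 0 of the 7 leukocyte and 7 fibroblast markers passed. The summed leukocyte list, mostly CD14, CD68 and LYZ, ran from 24.0 to 50.7 CPM at 500 Pa and from 26.3 to 46.1 CPM at 8000 Pa, with CD14 higher in 3 of 3 pairs (0.61, SE 0.41). The summed fibroblast list ran from 1.23 to 1.86 CPM and from 1.79 to 4.65 CPM, with COL1A1 at 98 counts in all. The part of those markers in the results below was not tested.

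Between soft and stiff gels 0 of the 45 tested genes passed with stiffness alone. Where libraries were paired by replicate number 3 of the 45 passed, in a fit that called 0.53% of all 11517 tested genes. HK2, an inducible hexokinase, was at 65.2 ± 27.3 CPM on soft and 119 ± 18.9 CPM on stiff gels, and the stress-response gene NDRG1 at 13.6 ± 4.65 and 30.1 ± 7.47 CPM (mean ± SD, n = 3 each). GALK1, the galactokinase, went the other way, from 98.6 ± 46.05 to 51.0 ± 22.9 CPM. The other enzymes, the sugar and lactate carriers, the HIF subunits and the other hypoxia genes did not pass. In edgeR's quasi-likelihood test with stiffness alone, 0 of 45 passed an adjusted p of 0.05, as did 0 of the 11517 genes tested (0%), while 3 of the 45 and 282 of all genes (2.45%) had an unadjusted p under 0.05. DESeq2 with stiffness alone called 4 genes of the whole table (0.0237%) and limma-voom called 0, with 0 of the 45 among them. Same-numbered libraries deviated together from their group means, with correlations of 0.409, 0.184 and 0.516 for replicates 1 to 3. The pairing of replicate 2 is not clear-cut, since 500 Pa replicate 2 reached 0.199 with 8000 Pa replicate 1. The part of the first principal component, which followed GC content, in these correlations was not tested. A second edgeR fit, the paired fit, kept the replicate number as a block. In that paired fit 61 of 11517 genes passed (0.53%), 30 higher (0.26%) and 31 lower (0.269%) at 8000 Pa. Among the 45 it called 3: HK2 and NDRG1 rose and GALK1 fell. Without replicate pair 1, which holds the library that stood apart, the paired fit called 38 genes, of which NDRG1 was the single member. Without pair 3 it called 12 genes and 0 members, and without pair 2 it called 81 genes and 3 members. DESeq2 with the same block called 42 of 10671 genes (0.394%), and HK2 and NDRG1 were among them. With the block and an offset for transcript GC content, edgeR called 76 genes (0.66%), again with HK2 and NDRG1 among them and GALK1 not. The paired fit rests on 1 spread trend shared by all genes. Only 2 degrees of freedom remained for the spread of any single gene.

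**Figure D1:**
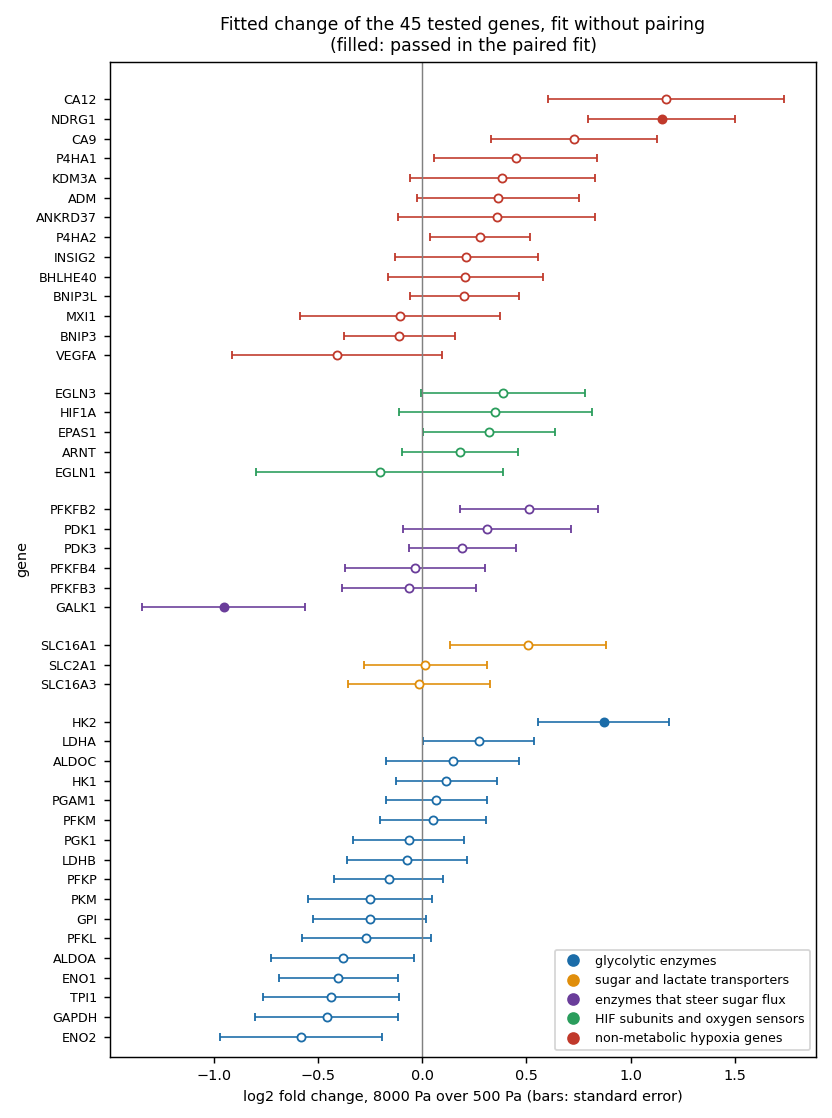
Fitted log2 fold change of 8000 Pa over 500 Pa for each of the 45 tested genes (points), with the standard error of the fit without pairing (bars), coloured by role. Filled points mark HK2, NDRG1 and GALK1, which passed in the paired fit; the enzymes spread from -0.58 (ENO2) to 0.87 (HK2) and the non-metabolic hypoxia genes from -0.41 (VEGFA) to 1.17 (CA12).

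The levels of the glycolytic enzymes spanned a wide range. Together the 17 took 4.87%, 3.78% and 5.31% of all counts in 500 Pa replicates 1 to 3 and 3.68%, 4.04% and 4.76% at 8000 Pa. These ranges overlap, and replicates 1 and 3 were lower on the stiff gel while replicate 2 was higher. Per kilobase of transcript, GAPDH, the glyceraldehyde-3-phosphate dehydrogenase, led at 8752 CPM over all libraries. ENO1, the main enolase, followed at 3262 CPM per kilobase and ALDOA, an aldolase, at 2623. The lowest of the 17 was ENO2, the enolase known best from neurons, at 5.24 CPM per kilobase. GAPDH shares its sequence with many processed copies (62 by name in GENCODE), and 53.5% of the exon bases of ALDOA are annotated to another gene as well, so reads of both could have been lost or split in counting.

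Across the 17 enzymes the median log2 fold change was -0.16 without pairing and -0.19 in the paired fit, beside 0.01 and -0.01 for all tested genes. Fitted values were above 0 for 6 enzymes and below 0 for 11, while 51.2% of all tested genes were above 0. HK2 was the 1 enzyme that passed, only with pairing, and 0 enzymes were called lower. GAPDH stood at 18767, 12022 and 26195 CPM in the soft libraries and at 9449.8, 12999.6 and 19024 CPM in the stiff ones, a log2 fold change of -0.46 (SE 0.34), or -0.11 without 500 Pa replicate 3. Its groups overlapped, and the difference was -0.99 in pair 1, 0.11 in pair 2 and -0.46 in pair 3. ENO1 stood at 9538, 6539 and 10042 CPM against 5032, 6263 and 8483 CPM, lower in 3 of 3 pairs with overlapping groups. ALDOA measured 4627, 2996 and 6651 CPM on soft gels and 2436, 3408 and 5116 CPM on stiff gels, lower in pairs 1 and 3 and higher in pair 2. Pair 1 likewise had the lowest difference in TPI1 (-0.94), GPI (-0.74) and PKM (-0.73).

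ENO2 had the lowest fold change of the enzymes, -0.58 (SE 0.39). It stood at 13.1, 13.1 and 27.2 CPM at 500 Pa and at 8.47, 12.9 and 14.2 CPM at 8000 Pa. The single high library was 500 Pa replicate 3, without which the change was -0.10, and the groups overlapped. The other enzymes with fitted values below 0 were TPI1 (-0.44), PFKL (-0.27), GPI (-0.25), PKM (-0.25), PFKP (-0.16), LDHB (-0.07) and PGK1 (-0.06). Those above 0, besides HK2 and LDHA, were ALDOC (0.15), HK1 (0.12), PGAM1 (0.07) and PFKM (0.05). None of these 11 passed in the fits with or without pairing.

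HK2 encodes the inducible hexokinase that phosphorylates glucose at the first step of the pathway and sits on mitochondria in many tumours. It measured 58.4, 95.2 and 42.0 CPM in 500 Pa replicates 1 to 3 and 138, 120.3 and 99.99 CPM in 8000 Pa replicates 1 to 3. All stiff libraries lay above all soft ones. In the paired edgeR fit the log2 fold change was 0.94 (SE 0.24, adjusted p = 0.0188), higher in 3 of 3 pairs. The unpaired edgeR fit gave 0.87 (SE 0.32, adjusted p = 1.00). The paired call held with a GC offset (0.91, adjusted p = 0.00926) and in DESeq2 (adjusted p = 0.033), and it was lost in edgeR without pair 1 (0.80, adjusted p = 0.0652) and without pair 3 (0.84, adjusted p = 0.977). HK1, the constitutive hexokinase, measured 469.6, 501 and 477 CPM on soft gels and 415, 569 and 586 CPM on stiff gels, a paired log2 fold change of 0.10 (SE 0.24).

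The letters upstream of the hexokinase genes are shown because HK2 was the enzyme that passed and HK1 its counterpart that did not. Each run holds the 250 bases before the start that RefSeq lists for the gene (GRCh38.p14, plus strand for both), at chr2:74833877-74834126 for HK2 and chr10:69269750-69269999 for HK1. Capitals mark ACGTG or GCGTG, the core letters of hypoxia response elements, read on either strand. In GENCODE 29 the genes span chr2:74833981-74893359 and chr10:69269984-69401884, so each window reaches past the first base of its GENCODE model, and neither run lies wholly upstream of the gene.
HK2: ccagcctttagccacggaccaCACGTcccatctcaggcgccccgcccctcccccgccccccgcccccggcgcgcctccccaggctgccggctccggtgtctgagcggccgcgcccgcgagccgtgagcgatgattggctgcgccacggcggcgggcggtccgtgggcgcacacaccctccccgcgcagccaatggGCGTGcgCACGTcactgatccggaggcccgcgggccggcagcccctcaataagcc
HK1: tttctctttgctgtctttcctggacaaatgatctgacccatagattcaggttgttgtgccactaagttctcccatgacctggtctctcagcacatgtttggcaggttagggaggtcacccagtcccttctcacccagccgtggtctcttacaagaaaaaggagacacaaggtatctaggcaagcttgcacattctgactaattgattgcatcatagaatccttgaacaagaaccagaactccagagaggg
HK2 held 3 matches and HK1 held 0. In the HK2 run only the match nearest its beginning lies before the first base of the GENCODE model. The later ones lie inside the gene span. The 0 of HK1 covers these 250 bases alone, and which start the cells used was not tested. The table lists 1 start per gene, and a match is a run of letters, not a bound site.

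LDHA, the lactate dehydrogenase subunit that favours lactate formation, had the next highest fold change of the enzymes at 0.27 (SE 0.27) without pairing and 0.29 (SE 0.26) in the paired edgeR fit, where the adjusted p was 0.781. It stood at 2878, 2600.2 and 1774 CPM at 500 Pa and at 3452, 2671 and 2629.8 CPM at 8000 Pa. LDHA was higher in each pair, by 0.26, 0.04 and 0.57 on the log2 scale, yet the groups overlapped. Its upstream run is shown for having 5 matches, a number that ALDOC held too. Those of LDHA lie at 3 places because CACGTG holds ACGTG on both strands (chr11:18394313-18394562, plus strand, marked as above). The LDHA run too passes the GENCODE start of its gene, at position 18394388 of that chromosome. Only the first of its marked places lies before that position.
LDHA: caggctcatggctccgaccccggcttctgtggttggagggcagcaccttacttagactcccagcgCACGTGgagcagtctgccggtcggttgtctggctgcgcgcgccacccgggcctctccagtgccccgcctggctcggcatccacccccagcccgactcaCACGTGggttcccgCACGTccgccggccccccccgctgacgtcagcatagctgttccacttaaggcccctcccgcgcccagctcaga
Of the 17 enzyme promoters, 10 held a match (58.8%), close to the 57.9% of 8750 promoters of tested genes and above the 43.2% of all 35116 RefSeq starts.

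Isozyme shares were compared within each library, where scaling between libraries plays no part. HK2 made up 11.1%, 16.0% and 8.09% of the hexokinase counts (HK1 and HK2) at 500 Pa and 24.9%, 17.4% and 14.6% at 8000 Pa. The share was higher in 3 of 3 pairs, but the lowest stiff library was below the highest soft one. The HK2 share differed by 7.28 percentage points between group means. With 1 library left out this difference ranged from 4.31 (without 8000 Pa replicate 1) to 9.48. LDHB, the subunit more common in tissues that use lactate, made up 26.6%, 25.9% and 25.8% of the LDHA and LDHB counts on soft gels and 23.3%, 23.2% and 18.4% on stiff gels. Here the groups did not overlap, though 33.4% of the exon bases of LDHB are annotated to another gene as well. The LDHB share differed by -4.49 percentage points between group means, and by -2.87 without 8000 Pa replicate 3. ALDOC was a small part of the ALDOA and ALDOC counts, at 1.42%, 1.53% and 0.987% against 1.90%, 1.57% and 1.86%, again with no overlap and higher on stiff gels. Transcript GC content differs within these pairs, so the shares are not free of the GC trend. It was 54.2% for HK1 and 51.2% for HK2, 60.1% for ALDOA and 56.8% for ALDOC, and 44.0% for LDHA and 46.5% for LDHB. The other shares computed (PFKL, PFKM and PFKP among the phosphofructokinases, ENO2 of the enolases, and 1 partner each of the lactate carrier, HIF alpha, BNIP3 and P4HA pairs) overlapped between stiffnesses. With 3 libraries against 3, an exact permutation test cannot give a two-sided p below 0.1, so none is given for shares.

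**Figure D2:**
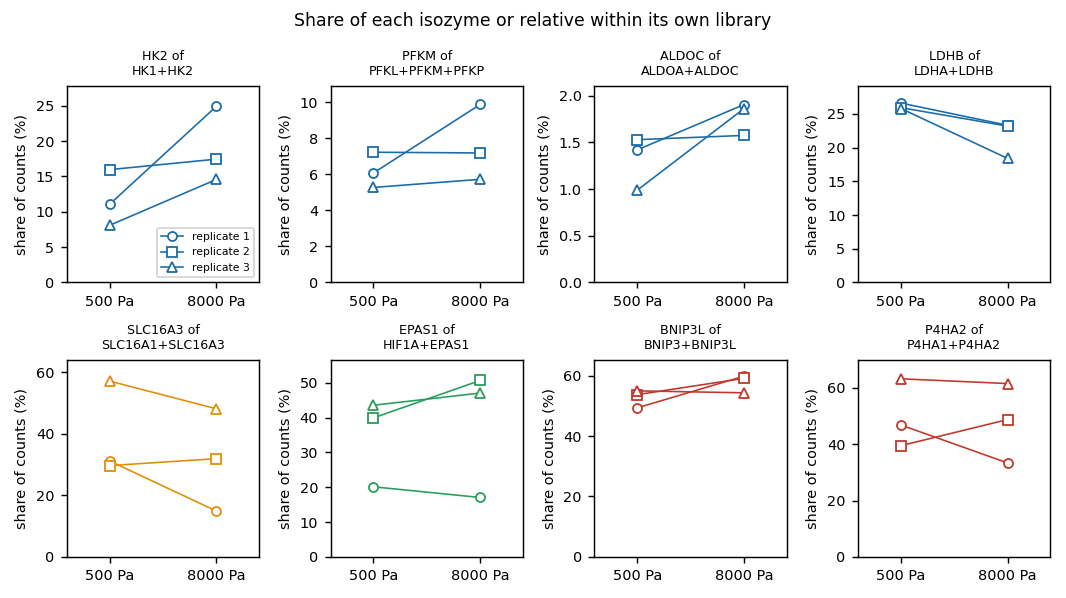
Share of counts (vertical axes, percent, from 0) taken by 1 isozyme or relative among its pair or trio in each library, with lines joining libraries of the same replicate number. LDHB of the lactate dehydrogenases and ALDOC of the aldolases have groups that do not overlap, and HK2 of the hexokinases is higher at 8000 Pa in 3 of 3 pairs.

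The carriers of glucose and lactate did not pass in the fits with or without pairing. SLC2A3, a high-affinity glucose carrier, had 0 counts in all 6 libraries and was the 1 gene of the 46 that could not be tested. Its near-identical neighbour SLC2A14 also had 0 counts, and whether reads that fit both genes were left out in counting was not tested. A count of 0 allows up to 0.160 to 0.361 CPM per library (3 counts of each total), which covers counting error only. SLC2A1, the widespread glucose carrier GLUT1, measured from 267 to 449 CPM at 500 Pa and from 275 to 504 CPM at 8000 Pa, with a fitted change of 0.01 (SE 0.30) without pairing. SLC16A1, the lactate carrier MCT1, stood at 108, 115 and 52.3 CPM on soft gels and 206, 94.6 and 91.6 CPM on stiff gels. That is 0.51 (SE 0.37) without pairing and 0.49 (SE 0.23) in the paired edgeR fit, with an adjusted p of 0.426, and pairs 1 and 3 were higher while pair 2 was lower. Without 8000 Pa replicate 1 the unpaired SLC16A1 change was 0.017. SLC16A3, the lactate exporter MCT4 and a known hypoxia target, measured 48.7, 48.6 and 69.6 CPM against 35.9, 44.3 and 84.8 CPM, with a fitted change of -0.02 (SE 0.34) that became 0.24 with pairing and a GC offset. The median of the 3 tested carriers was 0.01 without pairing and -0.00 with it, which turned to 0.24 with the GC offset. Of 2 carrier promoters in the RefSeq table, 0 held a match.

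Enzymes that steer sugar flux set the level of the glycolytic activator fructose 2,6-bisphosphate (PFKFB2, PFKFB3, PFKFB4), hold pyruvate back from mitochondria (PDK1, PDK3) or bring galactose into the pathway (GALK1). GALK1 was the 1 gene of the 45 called lower in the paired fit. It stood at 92.1, 56.2 and 148 CPM in 500 Pa replicates 1 to 3 and at 30.4, 46.8 and 75.7 CPM in 8000 Pa replicates 1 to 3. The groups overlapped, since 8000 Pa replicate 3 lay above 500 Pa replicate 2, but the stiff library was lower in 3 of 3 pairs, by 1.59, 0.26 and 0.96 on the log2 scale. In the paired edgeR fit the log2 fold change was -0.95 (SE 0.24, adjusted p = 0.0203), and without pairing it was -0.95 (SE 0.39, adjusted p = 1.00). With 65.3% GC its transcript was the richest in GC of the 46. With a GC offset the paired value was -0.55 (edgeR adjusted p = 0.14), with GC and length offsets -0.48 (adjusted p = 0.175), and without pair 1 -0.60 (adjusted p = 0.422), each without a call. DESeq2 with the block gave an adjusted p of 0.0708.

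GALK1 spans chr17:75751594-75765711 on the minus strand in GENCODE 29. The 250 bases before its RefSeq start (chr17:75765193-75765442, GRCh38.p14, written 5′ to 3′ on the minus strand) are shown because GALK1 passed in the paired fit. This run has 0 matches and so no capitals. This window lies wholly inside the GENCODE span of the gene.
GALK1: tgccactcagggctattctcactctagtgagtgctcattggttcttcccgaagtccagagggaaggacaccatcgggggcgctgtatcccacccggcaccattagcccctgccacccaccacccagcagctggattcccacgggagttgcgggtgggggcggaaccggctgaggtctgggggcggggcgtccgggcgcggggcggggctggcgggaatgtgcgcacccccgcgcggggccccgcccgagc
Among the other steering enzymes PFKFB2 had the highest fold change at 0.51 (SE 0.33). It measured 14.6, 16.4 and 11.6 CPM on soft gels and 25.7, 18.8 and 16.3 CPM on stiff gels, higher in 3 of 3 pairs and overlapping only in that 8000 Pa replicate 3 lay just below 500 Pa replicate 2. PDK1, the pyruvate dehydrogenase kinase most closely tied to HIF, stood at 9.11, 6.93 and 4.57 CPM against 11.9, 7.50 and 6.38 CPM, a change of 0.31 (SE 0.40) that was above 0 in each pair. PFKFB3 measured 24.5, 34.3 and 20.6 CPM at 500 Pa and 21.5, 22.5 and 32.0 CPM at 8000 Pa, with pairs that went opposite ways. The median of the 6 was 0.08 without pairing and 0.07 in the paired fit.

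None of the 5 genes of the oxygen-sensing machinery passed, and their groups overlapped. HIF1A, the broadly expressed alpha subunit, measured 148, 108 and 64.7 CPM at 500 Pa and 260.3, 85.4 and 64.7 CPM at 8000 Pa. The pair 1 libraries were the highest at each stiffness and the pair 3 libraries the lowest, and the fitted change was 0.35 (SE 0.46) without pairing, -0.52 also without 8000 Pa replicate 1, and 0.16 (SE 0.23) in the paired fit. EPAS1, which encodes HIF-2 alpha, was higher in 3 of 3 pairs, from 37.4 to 72.0 CPM on soft gels and from 53.5 to 87.9 CPM on stiff gels, a change of 0.32 (SE 0.32). ARNT, the shared beta subunit, ranged from 31.7 to 45.2 CPM and from 40.3 to 45.8 CPM. EGLN3, a prolyl hydroxylase that HIF itself induces, stood at 9.56, 19.7 and 9.57 CPM against 11.4, 18.0 and 21.3 CPM and had the highest fold change of the 5 at 0.39 (SE 0.39). EGLN1, the main oxygen sensor PHD2, stood at 2.51, 5.70 and 1.86 CPM against 5.35, 1.58 and 1.69 CPM, a change of -0.20 (SE 0.59) that rests on 208 counts in all. The median of the 5 was 0.32 without pairing and 0.20 with it, with pair values of 0.52, -0.17 and 0.20, and it was 0.10 with pairing and a GC offset.

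Of the 14 non-metabolic hypoxia genes, 11 had fitted changes above 0, beside 51.2% of all tested genes. NDRG1 was the 1 that rose, in the paired fit, which called 0.53% of all tested genes. The median was 0.32 without pairing and 0.34 with it, and 0.29 with pairing and a GC offset. By pair it was 0.41, -0.19 and 0.40, so replicate 2 went the other way. NDRG1, a stress gene induced by low oxygen and by iron loss, stood at 10.2, 18.9 and 11.7 CPM in 500 Pa replicates 1 to 3 and at 21.6, 33.1 and 35.7 CPM in 8000 Pa replicates 1 to 3. Again all stiff libraries lay above all soft ones. The paired edgeR fit gave a log2 fold change of 1.16 (SE 0.27, adjusted p = 0.00945) and the unpaired one 1.15 (SE 0.35, adjusted p = 1.00). The paired call held with a GC offset (1.36, adjusted p = 0.00134), in DESeq2 (adjusted p = 0.0136), and in edgeR without pair 1 (adjusted p = 0.0035) and pair 2 (adjusted p = 0.0447), and was lost without pair 3 (1.00, adjusted p = 0.835). NDRG1 had 1375 counts over all libraries, and its transcript is 58.0% GC.

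The carbonic anhydrases CA9 and CA12 turn carbon dioxide into bicarbonate at the cell surface and are textbook hypoxia targets in tumours. CA12 had the highest unpaired fold change of the 45, 1.17 (SE 0.57), at 1.62, 2.91 and 0.429 CPM on soft gels and 3.27, 4.44 and 3.69 CPM on stiff gels. The groups did not overlap, but the gene had only 178 counts in all and its adjusted p was 0.271 in the paired edgeR fit. With 1 library left out the unpaired CA12 change ranged from 0.82 (without 500 Pa replicate 3) to 1.76. CA9 stood at 19.0, 14.4 and 14.6 CPM against 21.6, 14.7 and 43.5 CPM, so that 8000 Pa replicate 3 held most of the difference. The CA9 change was 0.73 (SE 0.40) without pairing, 0.22 without 8000 Pa replicate 3, and 0.59 (SE 0.28, edgeR adjusted p = 0.424) in the paired fit, and 38.5% of the exon bases of CA9 are annotated to another gene too.

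The collagen prolyl hydroxylases P4HA1 and P4HA2 prepare procollagen for folding. P4HA2 measured 96.6, 85.1 and 96.7 CPM at 500 Pa and 108, 106 and 124 CPM at 8000 Pa, a small change of 0.28 (SE 0.24) with no overlap. P4HA1 ranged from 56.2 to 130.3 CPM and from 77.1 to 216 CPM, a change of 0.45 (SE 0.39). The mitophagy receptor BNIP3 stood at 58.9, 50.3 and 46.7 CPM against 53.4, 41.7 and 49.5 CPM, a change of -0.11 (SE 0.27), and has 39 named pseudogene copies. Its relative BNIP3L stood at 57.3, 58.4 and 57.0 CPM against 79.5, 60.3 and 58.9 CPM, which did not overlap, by a margin of less than 1 CPM. VEGFA, the vessel growth factor and the best known HIF target, was low, at 1.79, 2.46 and 1.29 CPM on soft gels and 1.598, 1.48 and 1.10 CPM on stiff gels. With 108 counts in all, its change of -0.41 (SE 0.50) was not resolved, although each stiff library lay below its soft partner. The remaining changes were 0.38 for the histone demethylase KDM3A, 0.36 for the vasodilator peptide gene ADM and for ANKRD37, 0.21 for INSIG2 and the repressor BHLHE40, and -0.10 for MXI1, with standard errors from 0.34 to 0.48.

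**Figure D3:**
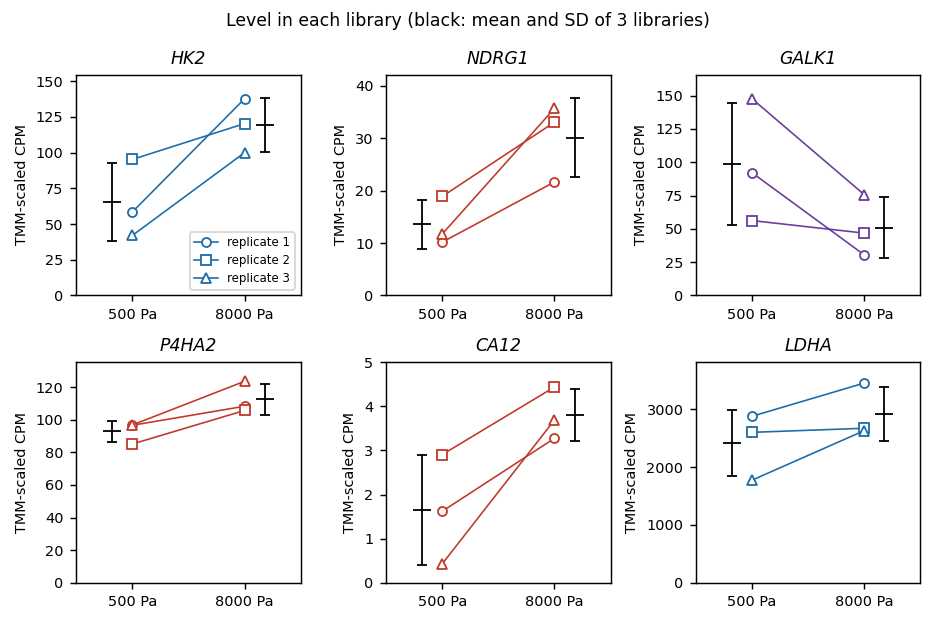
TMM-scaled CPM (vertical axes, from 0) of 6 genes in each library, with lines joining libraries of the same replicate number and black marks for mean and SD of 3 libraries. HK2, NDRG1, P4HA2 and CA12 have stiff libraries that all lie above the soft ones, whereas those of GALK1 and LDHA overlap.

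Over all 45 tested genes, 5 had stiff libraries that lay entirely above the soft ones: HK2, NDRG1, CA12, P4HA2 and BNIP3L. Over all tested genes 4.02% did so. The opposite was seen for 0 of the 45 and 2.85% of all genes. In 3 of 3 pairs, 11 of the 45 were higher (14.6% of all genes) and 5 were lower (15.2% of all genes). Of the 11, 6 were non-metabolic hypoxia genes (NDRG1, CA9, CA12, ADM, BNIP3L and P4HA2), 2 were enzymes (HK2 and LDHA), 2 were steering enzymes (PFKFB2 and PDK1) and 1 was EPAS1. The 5 lower ones were PFKL, ENO1, ENO2, GALK1 and VEGFA. At an unadjusted p under 0.05 the paired fit had 6 of the 45 (HK2, NDRG1, GALK1, CA12, CA9 and SLC16A1), beside 10.6% of all tested genes.

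Set side by side, the enzymes and the non-metabolic hypoxia genes had medians on opposite sides of 0, at -0.16 and 0.32 without pairing. Both medians moved when single libraries were left out: without 8000 Pa replicate 1 the medians were -0.022 and 0.16, without 500 Pa replicate 3 they were -0.017 and 0.24, and without 8000 Pa replicate 3 they were -0.38 and 0.27. In the paired fit without pair 1 both were above 0, at 0.0038 and 0.16, and without pair 2 they were -0.21 and 0.54. Within each library the mean log2 CPM of the 14 hypoxia genes minus that of the 17 enzymes was -5.74, -5.24 and -6.20 at 500 Pa and -4.85, -5.38 and -5.53 at 8000 Pa. The gap was narrower on the stiff gel in pairs 1 and 3 and wider in pair 2, and the groups overlapped. By pair, the enzyme medians were -0.62, 0.05 and -0.06, with pair 1 farthest from 0. Pair 1 also had a GC trend: across all tested genes its log2 differences had a Spearman rho of -0.62 with transcript GC content, against 0.06 in pair 2 and 0.02 in pair 3. Among the 45 genes the values were -0.66, 0.23 and -0.24. The unpaired fold changes had a rho of -0.38 with GC content across all tested genes and -0.43 across the 45. Median GC content was 55.0% for the enzymes, 49.7% for the hypoxia genes and 48.6% for all tested genes. With a GC offset the unpaired median of the enzymes was -0.04 and that of the hypoxia genes 0.22. The paired medians were -0.04 and 0.29 with a GC offset, and -0.02 and 0.23 with GC and length offsets.

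**Figure D4:**
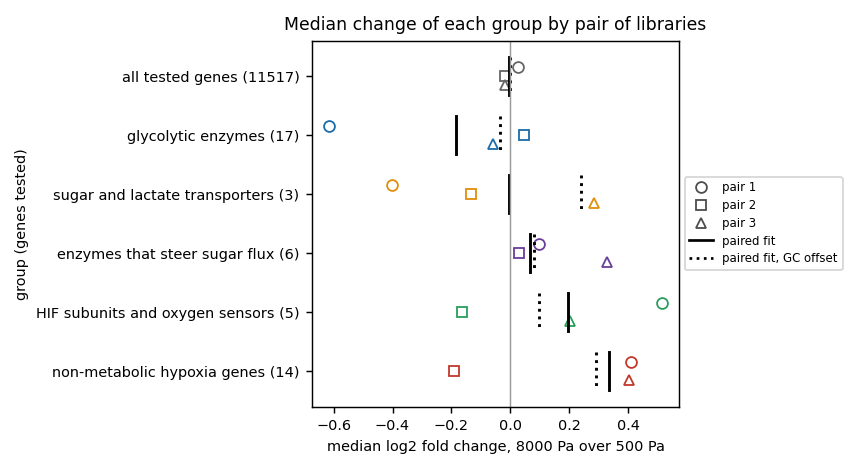
Median log2 difference, 8000 Pa over 500 Pa (horizontal axis), of each role group and of all tested genes, in each pair of same-numbered libraries (open symbols), in the paired fit (solid line) and in the paired fit with a GC offset (dotted line). The enzymes lie at -0.62 in pair 1 and near 0 in the other pairs, and the hypoxia genes at 0.41, -0.19 and 0.40.

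**Figure D5:**
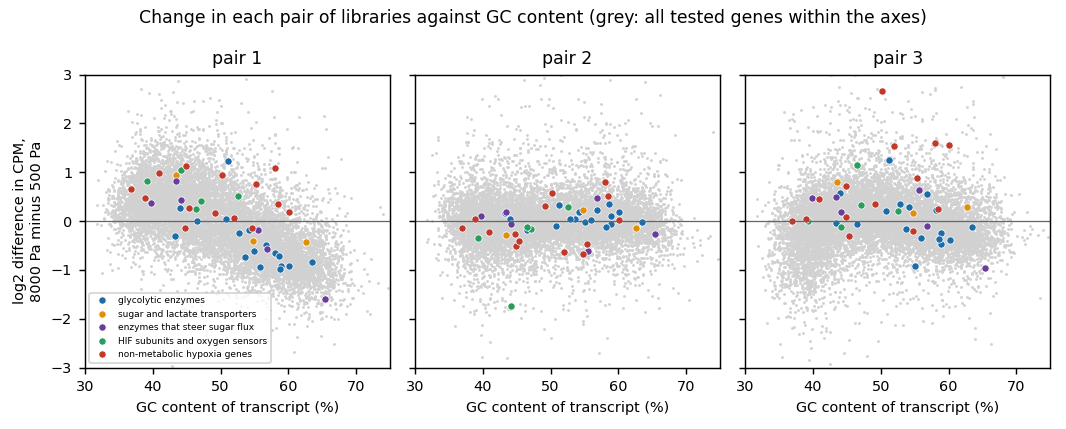
Log2 difference in CPM, 8000 Pa minus 500 Pa, against transcript GC content in percent for each pair, with the 45 genes coloured by role and other tested genes within the axes in grey. Pair 1 slopes downward (Spearman rho -0.62), and pairs 2 and 3 do not (0.06 and 0.02).

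Promoter letters were counted for the 40 genes found in the RefSeq table. Of these, 25 held ACGTG or GCGTG on either strand within 250 bases upstream (62.5%), against 57.9% of 8750 tested genes in the table. By role the counts were 9 of 11 for the non-metabolic hypoxia genes (81.8%), 3 of 5 for the steering enzymes and 3 of 5 for HIF subunits and sensors. SLC2A3, SLC16A1, PFKFB2, NDRG1, VEGFA and BNIP3L were not found in it and were not searched. BNIP3 held the most, 6, and of the hypoxia genes P4HA2 and MXI1 held 0. Genes with matches and genes without them were found both above and below 0 in fold change. Whether matches go with the direction of change was not tested.

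Further genes of the same pathways were counted from lists that do not include the 46. Of 15 tested genes among 25 further glycolytic isozymes and sugar entry enzymes, 0 passed, with a median of -0.06 and extremes of -0.99 for the muscle enolase ENO3 and 0.63 for the liver glycogen phosphorylase PYGL. Of 10 tested genes of gluconeogenesis and the pentose phosphate pathway, 0 passed (median -0.11, from -0.58 for PGLS to 0.44 for PC). Of 12 genes of pyruvate entry into mitochondria, 0 passed (median 0.15, from -0.24 for PDK2 to 0.30 for PDHB). Of 8 tested other carriers, 0 passed (median -0.10, from -0.54 for BSG, the chaperone of the lactate carriers, to 0.44 for SLC16A7). Of 11 tested HIF partners and regulators, 0 passed (median 0.05, from -0.62 for ELOB, listed as TCEB2, to 0.78 for ARNT2). EGLN2 had 2 counts in all libraries together and MIF, a further HIF target, had 0, and 30.6% and 61.9% of their exon bases are annotated to other genes too. Whether their reads were left out in counting was not tested, so these values do not show that the genes are silent.

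Among 25 tested further HIF targets the median was 0.23, with 16 above 0, beside 51.2% of all tested genes. In the paired fit, which called 0.53% of all tested genes, TMEM45A rose, while 0 of the 25 passed without pairing. TMEM45A, a transmembrane protein gene, stood at 132, 144 and 81.5 CPM at 500 Pa and at 262, 211 and 196 CPM at 8000 Pa, with no overlap. The paired edgeR log2 fold change was 0.94 (SE 0.23, adjusted p = 0.0163), beside 0.94 for HK2. The lowest of this list was KDM4B at -0.90 (SE 0.59), on 80 counts. In bulk RNA, a change in the level per cell and a change in the share of cells with the transcript cannot be told apart.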

How the data were processed

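For each of 6 libraries the authors deposited raw counts per gene symbol, made with HISAT2 2.1.2 and HTSeq 0.11.4 on GRCh38 per the submitters' processing notes. Beside them stand TMM-scaled log2 values, per the file headers, and the same notes also name limma and DESeq2. For 40 of the genes described, the deposited log2 values lay within 0.0908 of log2 CPM computed here, and they were not tested. For strand setting, RNA selection, annotation release and multiply mapped reads, the choice is not given in the sources used here. Value columns of no sample numbered 0.

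The test used edgeR 4.0.16 under R 4.3.3 on the counts (filterByExpr, minimum count 10, minimum total 15; TMM; quasi-likelihood test; Benjamini-Hochberg over all tested genes, FDR 0.05), with stiffness alone. Each fold change is on the log2 scale, positive where 8000 Pa was higher, and its standard error comes from the F statistic. CPM values are TMM-scaled. The paired fit adds the replicate number as a block. Same-numbered libraries deviated together from their group means (correlations of 0.409, 0.184 and 0.516, each above 0.1), although 500 Pa replicate 2 reached 0.199 with 8000 Pa replicate 1. The labels' numbers and these correlations are the source of the pairing, and no shared day is stated. Gene loadings on the first principal component followed transcript GC content (Spearman rho 0.79), and its part in these correlations was not tested. Alternatives were DESeq2 1.42.0, limma-voom (limma 3.58.1), other scalings, no filter, lowess offsets (span 0.3) for transcript GC content and length, and each library or pair left out. No libraries agreed within sampling noise (chi-square per degree of freedom at least 11.7).

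The members, role groups and further lists were chosen with earlier results of these data known. Values in every library are given for genes that passed in either fit, for the 2 highest and 2 lowest fold changes of each role group (1 each way in groups of under 6 tested genes) and for the 3 most abundant per kilobase. Of further lists, passing genes or else the highest and lowest are named. Genes named beyond that were chosen after their values were seen. Lengths, GC content, coordinates and exon overlap (with other genes on either strand) come from GENCODE 29 and promoters from RefSeq. Marker lists were epithelial, endothelial, leukocyte, fibroblast, adipocyte and erythroid.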

Additional observations from a re-analysis of the deposited data

How the results depend on the processing

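Over 20 alternative settings, 23 of the 45 tested genes kept the sign of their fold change in each, HK2, NDRG1 and GALK1 among them. The number of genes called with stiffness alone was 0 in edgeR, and it was 8 without the filter and 4 in DESeq2, with 0 of the 45 genes in each. With the replicate number as a block it was 61 (3 of the 45), in DESeq2 with that block 42 (2), in the block with a GC offset 76 (2), and in the block with GC and length offsets 79 (2). With 1 library or 1 pair left out, the calls ranged from 0 to 81 genes and from 0 to 3 of the 45. The block changed no call of the 45 genes other than those of HK2, NDRG1 and GALK1. Scaling by library size alone moved the median of all genes from 0.01 to 0.17, and that of the steering enzymes to 0.24. That median ranged from 0.049 to 0.27 with libraries or pairs left out. The differences in isozyme shares and in the share of counts of the enzymes moved by less than the SD pooled over both stiffnesses, although the LDHB difference moved by more than the SD of its 500 Pa libraries, and so did that of PFKM. With a library left out, share differences crossed 0 for PFKL (from -5.01 to 0.28 percentage points), PFKP (from -1.19 to 3.67), ENO2 (from -0.055 to 0.012), SLC16A3 (from -15.9 to 1.23), EPAS1 (from -3.47 to 14.4) and P4HA2 (from -8.80 to 5.31). The enzyme median ranged from -0.38 to 0.0038 and the hypoxia gene median from 0.16 to 0.54 with libraries or pairs left out.

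Fold changes that changed sign carried no call, and the cause was not tested. With DESeq2 size factors this was SLC2A1 -0.0045, with library size alone PGK1 0.10, LDHB 0.11, SLC16A3 0.12, PFKFB3 0.051, PFKFB4 0.12, BNIP3 0.057 and MXI1 0.088, without the filter SLC16A3 0.0044 and in limma-voom SLC2A1 -0.0042. In the replicate block it was SLC2A1 -0.0042 and in the block in DESeq2 SLC2A1 -0.0070. With a GC offset these were PFKL 0.027, PFKP 0.0098, SLC16A3 0.26, PFKFB3 0.024 and PFKFB4 0.10, with the block and a GC offset PFKL 0.027, PFKP 0.017, SLC16A3 0.24, PFKFB3 0.069 and PFKFB4 0.094, and with the block and GC and length offsets PFKL 0.023, PFKM -0.011, PFKP 0.031, SLC16A3 0.16, PFKFB4 0.053 and ARNT -0.017. With libraries or pairs left out, fold changes that crossed 0 ranged as follows: PFKP from -0.38 to 0.069, PGK1 from -0.23 to 0.15, PKM from -0.55 to 0.013, SLC16A3 from -0.46 to 0.22, PFKFB3 from -0.34 to 0.22, PFKFB4 from -0.34 to 0.21, HIF1A from -0.52 to 0.75, INSIG2 from -0.10 to 0.45, SLC2A1 from -0.28 to 0.25, EGLN1 from -1.04 to 0.57, MXI1 from -0.44 to 0.055, ALDOC from -0.22 to 0.41, PGAM1 from -0.063 to 0.22, BHLHE40 from -0.23 to 0.78, LDHB from -0.29 to 0.15, BNIP3 from -0.19 to 0.0100, PDK1 from -0.0042 to 0.61, P4HA1 from -0.073 to 0.78 and KDM3A from -0.048 to 0.94. A fit with 1 pair left out has 1 residual degree of freedom per gene. Genes of few counts (VEGFA, MXI1, CA12, ANKRD37 and EGLN1, with 108 to 208) have the widest standard errors of the 45.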
